A study of Mus musculus with 22 samples.

Results

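The collagens are the rope-like and net-like proteins that hold a tissue together, and their genes were followed in the epididymal white fat of mice that breathed air low in oxygen for 6 hours. A collagen probe was any array probe whose gene name in the files is Col, digits, the letter a and digits, and it was kept where its Cy5 signal was marked as well above background on at least 10 of 22 arrays. This left 31 probes of 24 genes, out of 68 collagen probes of 43 genes on the array. The tested probes of all genes numbered 21470, under 16612 gene names of the files. The fat came from male C57BL/6JOlaHsd mice, an inbred strain, that arrived at an age of 10 weeks. They were kept for 3 weeks on purified feed in which fat supplied 10% of the energy, followed by 6 weeks on feed with 40%. After a fast, 12 mice stayed at 20.9% oxygen (normoxia) and 10 mice were moved to 12% oxygen (hypoxia), both for 6 hours inside a calorimeter. Low-fat feeding is mentioned in the protocol with no mice named, and diet was left out of the model. Each mouse's RNA carried the dye Cy5, and was measured on its own 2-colour Agilent array beside a Cy3-labelled pool of all the samples, without dye swaps. A value is the log2 ratio of the mouse to the pool, so a value of 1 is a doubling over the pool. A gene's common distance from 0 over all mice can come from the dyes, and values of different probes cannot be ranked against each other.

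A collagen molecule is made of chains that wind around each other into a triple helix, in which a glycine stands at each turn of a Gly-X-Y repeat. Fibrillar collagens (types I, III and V in most soft tissues) form the fibres that carry tension, and fibroblasts and adipose progenitor cells are their known makers. Basement membrane collagens form the thin sheet around every fat cell and blood vessel: type IV builds its network, and types XV and XVIII, the multiplexins, link that sheet to the fibres outside. The remaining types bind fibres to each other or to cells, and type VI, which forms beaded filaments, is abundant in fat and has been studied as a limit on the growth of fat cells. Making a helix needs hydroxylases that use molecular oxygen, which is why collagen enters questions about oxygen supply. The array measures transcripts only, and in whole tissue fewer cells of a type and less RNA per cell cannot be told apart.

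The 31 probes comprised 7 of 11 fibrillar probes on the array (7 genes), 11 of 14 basement membrane probes (7 genes) and 13 of 43 probes of other collagens (10 genes). Of these, 14 were well above background on every array: the probes of Col1a1, Col1a2, Col3a1, Col5a1, Col5a3, Col4a1, Col4a2, Col6a1 and Col6a3, both Col18a1 probes, and 1 probe each of Col6a2, Col14a1 and Col16a1. No collagen spot was saturated. Just inside the limit lay Col24a1, a minor fibrillar chain measured on 12 arrays (5 normoxia and 7 hypoxia), and Col7a1, the chain of anchoring fibrils (8 normoxia and 4 hypoxia). Just outside lay a probe of the transmembrane collagen Col23a1 with 9 arrays, and 1 of Col8a1, the partner chain of Col8a2, with 8 arrays. In all, 37 probes did not reach the limit, 8 of them above background on 0 arrays, and 19 genes had no kept probe. Among these 19 were genes known as cartilage collagens, Col2a1, Col9a1, Col9a2, Col9a3, Col10a1, Col11a1 and Col11a2, and the epithelial Col17a1. The array also carries 2 probes that the files name Emid2 and RefSeq names Col26a1, which fall outside the name rule.

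The arrays differed in depth. Cy5 was marked as well above background for 18.3% to 66.3% of spots in normoxia (median 42.8%) and for 15.6% to 76.8% in hypoxia (median 35.5%). They lie on 6 slides, of which 5 carry 2 mice of each group and slide 2 carries normoxia mice 9 and 10 alone. The 4 dimmest arrays are those of slide 1. All 10 adipocyte markers of a fixed list were measured. Of 9 genes of sperm and epididymis, 4 were measured, and their mean per mouse, relative to the mean over all mice, ran from -1.60 to 3.26 in normoxia and from -1.30 to 1.69 in hypoxia, with normoxia mouse 1 at the top.

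No collagen probe passed the test between hypoxia and normoxia, and the differences were small beside the spread between mice. In limma's test with Benjamini-Hochberg adjustment over the 21470 probes, 0 of 31 collagen probes passed an adjusted p of 0.05, against a background of 0% of all probes tested (0 called). At an unadjusted p under 0.05 there were 3 collagen probes, all with the higher mean in hypoxia, where 5.23% of all probes had such a p. These were 2.56% with the higher mean in hypoxia and 2.67% with the lower. The 3 collagen probes belonged to Col18a1, Col4a1 and Col6a5. The differences of the 31 probes ran from -0.23 to 0.31 on the log2 scale, and their standard errors from 0.074 to 0.25 with a median of 0.13. Above 0 lay 20 of the 31 probes (64.5%), against 50.9% of all probes tested. With the brightest probe of each gene, 17 of 24 genes lay above 0.

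**Figure D1:**
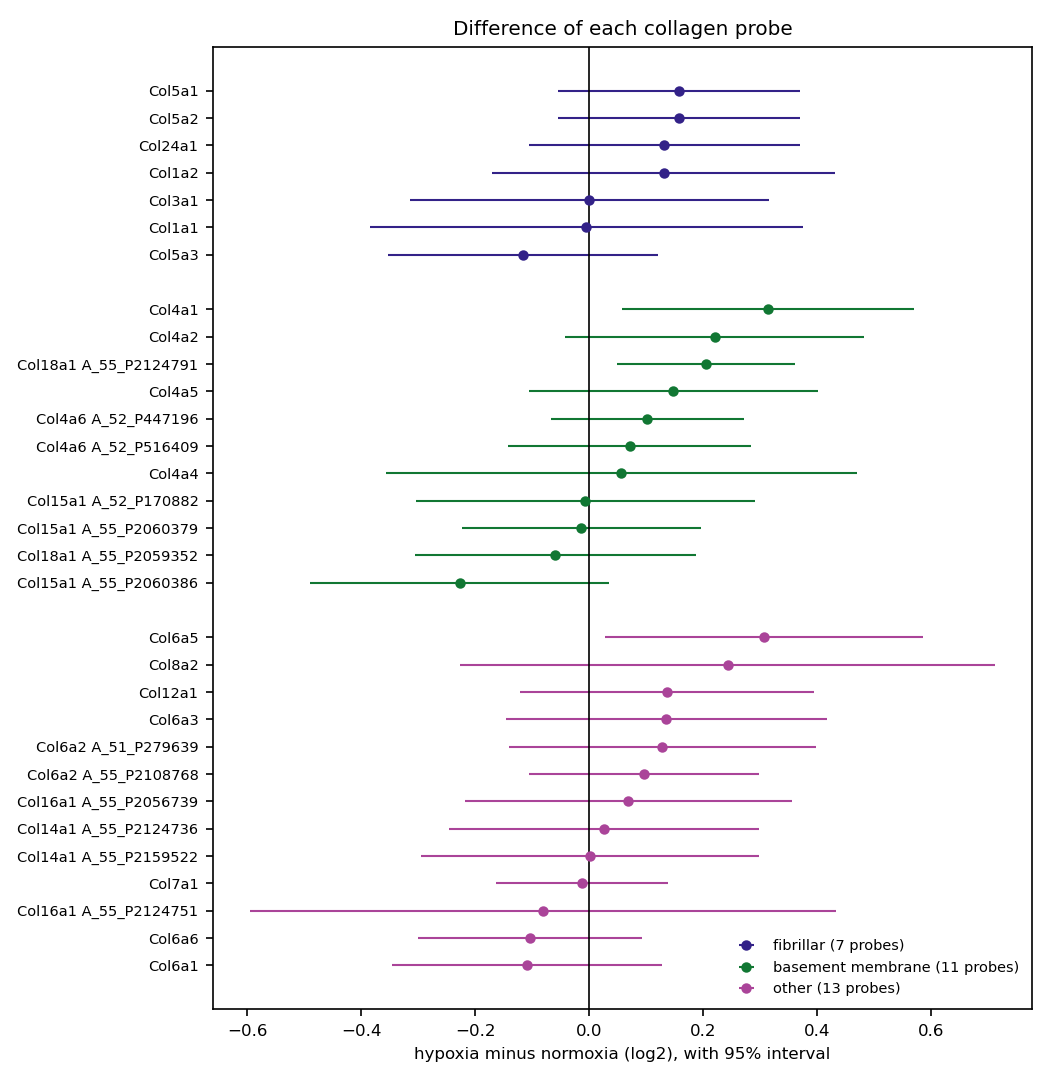
Difference in log2 ratio, hypoxia (n = 10) minus normoxia (n = 12), of each of the 31 collagen probes (points) with its 95% interval (lines), ordered within the fibrillar, basement membrane and other collagens. The points run from -0.23 to 0.31, and 28 of the intervals include 0. With median centring in place of loess, 4 of the 31 points lie above 0, while the median of all probes lies at -0.20.

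By class, the median difference was 0.13 for the fibrillar probes (4 of 7 above 0), 0.071 for the basement membrane probes (7 of 11) and 0.069 for the others (9 of 13), beside 0.0022 for all probes tested. These medians are small beside the spread between mice, and they took the other sign in some alternatives. With median centring in place of loess the median of all probes moved to -0.20, and relative to it the class medians were -0.017, 0.11 and 0.072. In the deposited value table, which lacks the fibrillar Col24a1, the fibrillar median was -0.06, over fewer probes than the 0.13. The basement membrane median was -0.025 in the Cy5 channel alone, and that of the other collagens -0.00061 with mice of the same replicate number as blocks. These values are not relative to the median of all probes in their setting, so a shift of all probes can be part of them. The same holds below for values with median centring, unless they are given relative to that median. Over the 5 slides that carry both groups, the mean of a class in hypoxia less that in normoxia ran from -0.18 to 0.26 for the fibrillar, from -0.13 to 0.27 for the basement membrane and from -0.23 to 0.37 for the other probes, with 4, 3 and 3 slides above 0.

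Among the fibrillar collagens, the group means of Col1a1 and Col3a1, which make up much of the fibres, nearly coincided. Col1a1, the alpha 1 chain of type I collagen, had log2 ratios between -1.76 and 0.35 in normoxia (median -0.66) and between -1.35 and -0.46 in hypoxia (median -0.65). The hypoxia mice lay wholly within the range of the normoxia mice. The difference was -0.0052 ± 0.18 (SE, limma's adjusted p = 0.999), with a 95% interval of -0.38 to 0.37. Without normoxia mouse 1, the highest, it was 0.096, and without normoxia mouse 8, the lowest, -0.097.

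Col1a2, the partner chain of type I, ran from -0.54 to 0.50 in normoxia (median -0.043) and from -0.29 to 1.05 in hypoxia (median 0.034). Of the hypoxia mice 5 lay above the normoxia mean, and mouse 7, from a dim array of slide 1, stood far above the others. The difference was 0.13 ± 0.15 (SE, limma's adjusted p = 0.989), and 0.025 without hypoxia mouse 7. Col3a1, the type III chain that forms thin fibres with type I, ran from -0.72 to 0.81 in normoxia (median -0.26) and from -0.86 to 0.39 in hypoxia (median -0.19). Both group means were -0.23, and the 95% interval of the difference ran from -0.32 to 0.32.

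Type V collagen nucleates fibres and sets their width. Its chains Col5a1 and Col5a2 each had a difference of 0.16 (SE 0.10 for each, limma's adjusted p = 0.986 for each), and the remaining chain Col5a3 had -0.12 ± 0.12. Col5a2 was higher in hypoxia on all 5 slides with both groups, by 0.11 to 0.28, while Col5a1 was higher on 4 of them and stood at -0.31 on slide 6. Col24a1, known from bone, differed by 0.13 ± 0.12. With median centring Col5a1 and Col5a2 took the other sign (-0.13 and -0.043), and relative to the median of all probes they stood at 0.074 and 0.16. Other settings gave higher values: Col5a2 was 0.38 and Col24a1 0.40 in the log ratios of the scanner software, and 0.27 and 0.32 with no normexp offset. Col5a1 was 0.062 in the deposited value table.

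**Figure D2:**
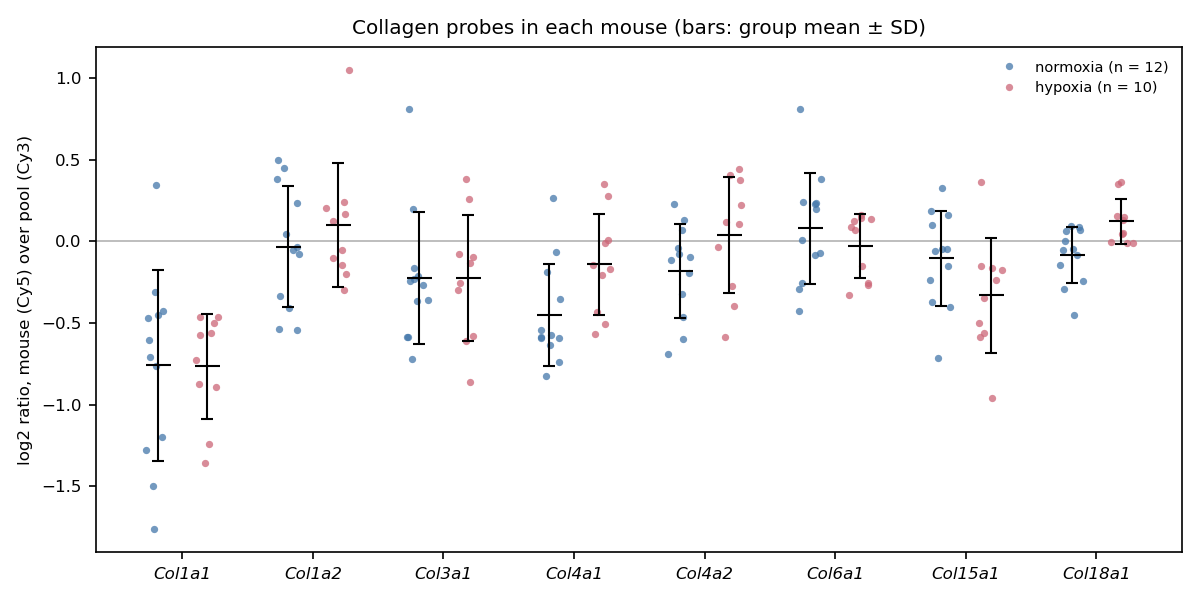
Log2 ratio of each mouse to the pool for the brightest probe of 8 collagen genes, in normoxia (blue, n = 12) and hypoxia (red, n = 10), with group means and standard deviations (black). The groups overlap in every gene. For Col4a1, 7 of 12 normoxia mice lie below the lowest hypoxia mouse at -0.57, and for Col1a1 the group means are -0.76 in both.

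Type IV collagen gave the largest difference of the 31 probes. Col4a1, which forms the common network of basement membranes together with Col4a2, ran from -0.83 to 0.27 in normoxia (median -0.58) and from -0.57 to 0.35 in hypoxia (median -0.16). Most normoxia mice were low: 7 of 12 lay below the lowest hypoxia mouse, but normoxia mouse 1 was higher than 8 of the hypoxia mice. The means were -0.45 ± 0.31 (SD, n = 12) and -0.14 ± 0.31 (SD, n = 10), a difference of 0.31 ± 0.12 (SE, 1.24-fold, unadjusted p = 0.0184, adjusted p = 0.866 in limma). It was higher in hypoxia on 4 of 5 slides, by 0.21 to 0.65, and stood at -0.18 on slide 6. Leaving out 1 mouse at a time gave 0.26 to 0.38. The difference was 0.18 in the deposited value table and -0.00087 with median centring, which is 0.20 relative to the median of all probes in that setting.

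Col4a2 ran from -0.69 to 0.23 in normoxia (median -0.11) and from -0.58 to 0.44 in hypoxia (median 0.11). The groups overlapped over most of their range, and 7 hypoxia mice lay above the normoxia mean. The difference was 0.22 ± 0.13 (SE, limma's adjusted p = 0.97), 0.12 in the deposited value table and -0.094 with median centring. Col4a4, Col4a5 and Col4a6 are the chains of the more restricted networks, best known from kidney and smooth muscle. Col4a5 differed by 0.15 ± 0.12, Col4a4 by 0.056 ± 0.20, and the Col4a6 probes by 0.10 and 0.071. So all 6 measured type IV probes lay above 0, with a median of 0.12. This count is 4 of 6 in the Cy5 channel alone, 5 of 6 with the slides as a fixed block, with the log ratios of the scanner software, without slide 2 or with no normexp offset, and 0 of 6 with median centring, where all 6 lie above the median of all probes. The 6 probes share the mice and arrays. Only Col4a1 and Col4a2 were well above background on all 22 arrays. Col4a5 and a Col4a6 probe were so on 18, Col4a4 on 15 and the other Col4a6 probe on 14. From mouse to mouse Col4a1 followed Col4a2 (r = 0.77 over 22 mice), but not the restricted chains, with r = -0.18 for Col4a4, -0.20 for Col4a5 and -0.20 and -0.48 for the Col4a6 probes. The part of weak signal in the values of the restricted chains was not tested.

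Markers of smooth muscle and pericytes, the cells that wrap vessels and also make type IV collagen, had higher means in hypoxia too. Of 11 in a fixed list 10 were measured, 9 lay above 0 (median difference 0.21; 3 of 10 with median centring, where 8 lie above the median of all probes), 0 passed, and 5 had an unadjusted p under 0.05. Of these 5, 4 had the higher mean in hypoxia, and the pericyte marker Cspg4 had the lower (-0.24 ± 0.096, SE). Of all probes tested 5.23% had such a p, and 50.9% lay above 0. The mean of the 10 markers per mouse ran from -0.37 to 0.27 in normoxia and from -0.20 to 0.38 in hypoxia. Of the endothelial markers 7 of 10 lay above 0 (median 0.028, but -0.024 in the scanner software's log ratios and -0.0085 in the deposited value table, and 0 of 10 above 0 with median centring, where 6 lie above the median of all probes), with means per mouse from -0.20 to 0.21 in normoxia and from -0.14 to 0.20 in hypoxia. Lists of cells outside the vessel wall had higher means in hypoxia as well, and none of their members passed: 11 of 11 mesothelial markers lay above 0 (median 0.17), 5 of 5 mast cell markers (0.15), 8 of 10 macrophage markers (0.15) and 9 of 10 adipocyte markers (0.065), against 5 of 11 progenitor markers (-0.017) and 0 of 4 sperm genes (-0.53). With median centring 2 of 11, 0 of 5, 2 of 10 and 1 of 10 of the first 4 lists lay above 0, where 11, 4, 7 and 4 lie above the median of all probes. Of the adipocyte markers 4 of 10 lay above 0 in the deposited value table, and in the log ratios of the scanner software 9 of 11 progenitor markers. From mouse to mouse Col4a1 correlated at r = -0.083 with the mean of the smooth muscle and pericyte markers. This r was -0.41 in normoxia and 0.46 in hypoxia, and 0.14 with the slide means removed. The part of any of these cells in the difference of the type IV probes was not tested.

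The multiplexin probes lay on both sides of 0, with 1 of 5 above it. Col18a1, whose end is cleaved off as endostatin, has 2 probes on all arrays, placed by the files on mm9 at chr10:76515790-76515849 and chr10:76514926-76514985, 804 bases apart. The first ran from -0.45 to 0.096 in normoxia (median -0.048) and from -0.010 to 0.36 in hypoxia (median 0.091). Every hypoxia mouse exceeded the mean of the normoxia mice, and 7 of 12 normoxia mice lay below the lowest hypoxia mouse. Its difference was 0.20 ± 0.076 (SE, 1.15-fold), with the smallest p of all collagen probes (unadjusted p = 0.0123, adjusted p = 0.846 in limma). The second probe differed by -0.059 ± 0.12, from -0.48 to 0.36 in normoxia and from -0.56 to 0.57 in hypoxia. From mouse to mouse the probes correlated at r = 0.20 over 22 mice, and at -0.30 with the slide means removed. In the deposited value table the first probe stood at 0.098, and with median centring at -0.093 and 0.11 relative to the median of all probes.

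Col15a1 has 3 probes. The 1 that the results turn on lies within the helix, and is shown because a script found in its 60 bases an open frame with 6 glycine codons in the regular spacing of a triple helix (capitals). The files place it on mm9 at chr4:47283786-47283845, plus strand.
Col15a1: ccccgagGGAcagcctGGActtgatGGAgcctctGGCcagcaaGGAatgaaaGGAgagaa

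This helix probe ran from -0.72 to 0.32 in normoxia (median -0.053) and from -0.96 to 0.36 in hypoxia (median -0.29). Only 1 of 10 hypoxia mice lay above the normoxia mean. The difference of -0.23 ± 0.13 (SE, limma's adjusted p = 0.97) was the lowest of the 31 probes, and stood between -0.30 and -0.16 when 1 mouse at a time was left out. It was -0.38 in the log ratios of the scanner software, -0.45 with median centring, where the median of all probes fell too, and -0.13 in the Cy5 channel alone. The other Col15a1 probes, whose 60-base targets share 48 bases about 41 kilobases away (41427 and 41415 bases), differed by -0.0067 and -0.014. They were above background on 16 and 13 arrays, and the helix probe on 19. These overlapping probes correlated with each other at r = 0.32 and with the helix probe at 0.47 and 0.70, so the pair that shares most of its target did not have the highest r.

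Among the other collagens, type VI filaments gave values on both sides of 0. Col6a1 ran from -0.43 to 0.81 in normoxia (median 0.10) and from -0.33 to 0.16 in hypoxia (median 0.080). The hypoxia mice lay within the normoxia range, and the difference was -0.11 ± 0.12 (SE, limma's adjusted p = 0.989). It stood at -0.41 with median centring, where the median of all probes fell too, -0.21 in the deposited value table and -0.0028 with array weights. Its partner chains Col6a2 (0.13 and 0.096 in 2 probes) and Col6a3 (0.14 ± 0.14) lay above 0. The 3 chains are assembled in equal numbers into the filament.

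Col6a5 and Col6a6 are later-described chains that can take the place of Col6a3. Col6a5 ran from -0.89 to 0.39 in normoxia (median -0.41) and from -0.35 to 0.59 in hypoxia (median -0.16). In hypoxia 9 of 10 mice lay above the normoxia mean, and 7 of 12 normoxia mice lay below the lowest hypoxia mouse. The difference of 0.31 ± 0.14 (SE, unadjusted p = 0.0324, adjusted p = 0.903 in limma) ranged over the slides from -0.15 to 1.01, and from 0.24 to 0.37 when 1 mouse was left out. It was 0.49 with no normexp offset, 0.20 in the deposited value table and 0.017 with median centring. This probe was above background on 18 of 22 arrays (10 normoxia, 8 hypoxia). Col6a6 differed by -0.10 ± 0.096, and by 0.25 in the deposited value table and 0.05 with median centring.

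The fibre-associated collagens, which sit on the surface of fibres, did not pass. Col12a1 differed by 0.14 ± 0.13, but by 0.33 in the log ratios of the scanner software, 0.38 with no normexp offset and -0.049 with median centring. The Col14a1 probes differed by 0.026 and 0.0011. The 2 probes of Col16a1, which lie 67 bases apart, differed by 0.069 and -0.081. The second had the widest spread of all collagen probes, since normoxia mouse 1 stood at 2.54 and the other mice between -0.77 and 0.25. Col7a1 differed by -0.013 ± 0.074, the smallest standard error among the collagens. This probe was above background on only 12 arrays (8 normoxia and 4 hypoxia), so its small error need not mark a firm estimate. Col8a2, a short-chain collagen of vessel walls, differed by 0.24 ± 0.23, with normoxia mice from -1.46 to 0.44 and hypoxia mice from -1.31 to 0.38.

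Differences between mice of the same group were wider for collagens than for most probes. The within-group standard deviation of the 31 probes had a median of 0.31, at percentile 86.4 of all probes tested. Bright probes alone gave the same picture: 14 collagen probes among 7478 probes above background on all arrays had a median of 0.33 against 0.23, and 13 of 14 lay above the median of the bright probes. The exception was the first Col18a1 probe, at percentile 7.06. Col1a1 was the most variable of the bright collagen probes, at percentile 97.1. Normoxia mouse 1 had the highest deviation from its group in 10 of 31 collagen probes, while no other mouse had it in more than 4. The same mouse had the highest mean of sperm genes (3.26). Over 22 mice the deviations of the 31 probes correlated with that mean at r between -0.46 (Col24a1) and 0.66 (Col4a4), and without this mouse between -0.64 and 0.81 for the same probes. Without it Col8a2 went from 0.53 to 0.71, Col3a1 from 0.46 to 0.19 and Col5a2 from 0.24 to -0.23. These values kept deviations from group means that include normoxia mouse 1, so a shift between the groups can enter them. Without that mouse 24 of 31 probes lay above 0, and 0 passed.

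Whether collagen chains vary together from mouse to mouse was asked with deviations from the group means, over 22 mice. Of 11 pairs listed, 10 could be computed, since Col8a1 was not measured. In 5 of the 10 the chains are built into 1 molecule (types I, IV and V, and Col6a1 with Col6a2 or Col6a3), and in the other 5 they are not. Of these 10 only Col4a1 and Col4a2 passed in a permutation test with 100000 resamples (Pearson r = 0.77, p = 3e-05, Benjamini-Hochberg adjusted p = 3e-04; Spearman's rho = 0.74, p = 0.00023, adjusted p = 0.0023; two-sided). The r was 0.68 in normoxia and 0.87 in hypoxia, 0.77 without the 2 mice farthest from the median of Col4a1, and 0.86 with the slide means removed. A mouse with high Col4a1 thus also had high Col4a2 in either group.

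Col4a1 and Col4a2 lie head to head on chromosome 8, and the RefSeq start sites (GRCm38.p6) overlap. The 30 bases around both starts are shown for this arrangement, plus strand, with the 22 bases from the Col4a2 start to the Col4a1 start in capitals, at chr8:11312801-11312830.
Col4a1 and Col4a2 starts: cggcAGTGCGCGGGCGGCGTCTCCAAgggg

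The same head-to-head order holds for Col4a5 and Col4a6 on the X chromosome, with 1342 bases between the starts, and Col4a5 correlated with the brighter Col4a6 probe at r = 0.61 (0.60 with the slide means removed), but with the other at 0.25. The other neighbouring pairs of measured collagen genes correlated at r = 0.51 (Col3a1 and Col5a2), 0.35 (Col6a1 and the brighter Col6a2 probe, 0.11 with the other) and -0.029 (Col6a5 and Col6a6). No test was made over the 5 neighbouring pairs, and neighbours can also be chains of a common molecule. In the promoter windows of RefSeq (250 bases before to 50 after the start, both strands), 20 of the 24 genes were found in 22 windows. The core of the hypoxia response element, ACGTG, was in 18.2% of them and in 19.6% of all 32851 windows, and GCGTG in 27.3% against 32.4%. ACGTG was found for Col1a2, Col4a4, Col5a1 and Col6a6, and GCGTG for Col4a1, Col4a2, Col5a3, Col6a2, Col6a6 and Col16a1. CCAAT was in 36.4% against 37.4%.

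The type I chains gave a lower value. Col1a1 and Col1a2, joined in a fixed ratio in the type I molecule, correlated at r = 0.27 (permutation adjusted p = 0.29; Spearman's rho = 0.21), and at -0.024 without the 2 farthest mice. The share of spots above background in Cy5 correlated at 0.40 with Col1a1 and at -0.25 with Col1a2, and the slides differed in opposite ways for these probes: on slide 1 the 4 mice averaged -0.27 for Col1a1 and 0.40 for Col1a2 relative to their groups, and on slide 2 the 2 mice averaged 0.38 and -0.22. With the slide means removed r was 0.66. In that setting 7 of 10 pairs passed in Pearson's r in place of 1. The 7 were 4 of the 5 pairs of 1 molecule and 3 of the 5 others, among them Col1a1 with Col6a1 (r = 0.54, permutation adjusted p = 0.026). In Spearman's rho Col1a1 with Col6a1, Col1a1 with Col3a1 and Col5a1 with Col5a2 did not pass there (permutation adjusted p = 0.072, 0.15 and 0.092). The permutation moved mice within a group and not within a slide, so p-values with the slide means removed can be too small. Col4a1 with Col4a2 passed with and without the slide means. The other pairs lay between r = 0.20 (Col1a1 and Col4a1) and 0.51 (Col3a1 and Col5a2), and their adjusted permutation p between 0.14 and 0.40.

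**Figure D3:**
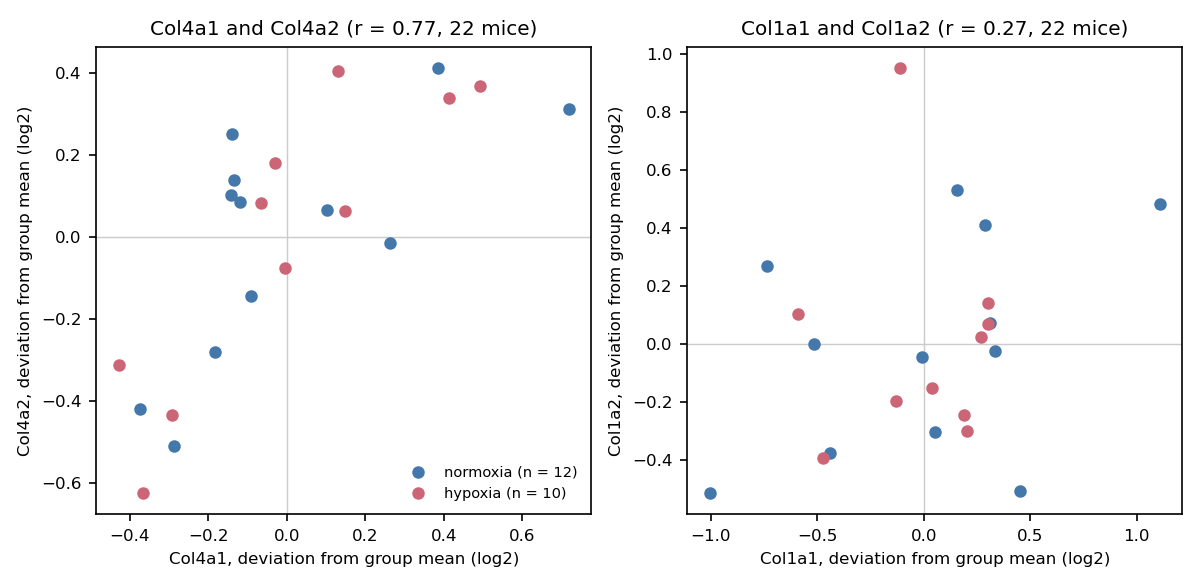
Deviation of each mouse from its group mean (log2) for the 2 chains of type IV (left) and of type I collagen (right), normoxia in blue (n = 12) and hypoxia in red (n = 10). The type IV chains line up (r = 0.77), while the type I chains scatter (r = 0.27).

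Over all bright collagen probes the correlations leaned to positive values. Of 90 pairs from different genes 70 were above 0, with a median r of 0.36, where a bright collagen probe and any other bright probe had a median of -0.016. Without normoxia mouse 1 the median was 0.34 and 66 pairs were above 0. Over all 457 pairs of the 31 probes the median was 0.12, lower than among the bright probes. The highest value, chosen after all values were seen, was r = 0.87 between Col3a1 and Col5a1, chains of different fibre types (0.86 without normoxia mouse 1, 0.90 with the slide means removed). Next came Col4a1 with Col6a3 at 0.85 (0.79 and 0.83). The correlations share the mice, the arrays and the pool, and no p is given for them.

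**Figure D4:**
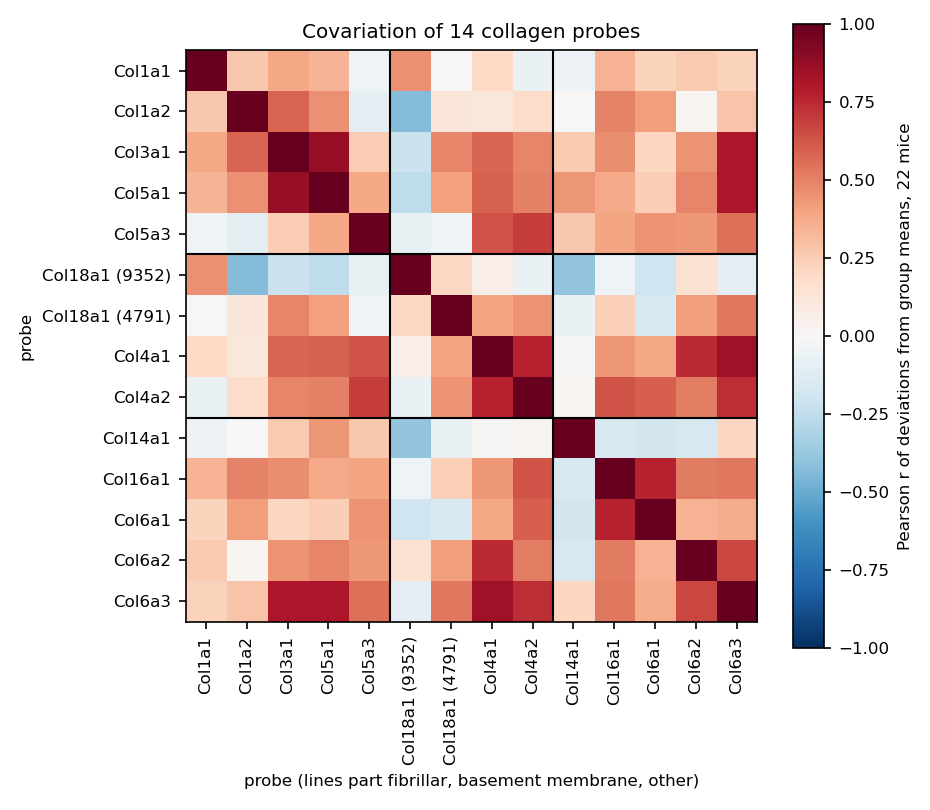
Pearson correlation of deviations from the group means over 22 mice, for the 14 collagen probes above background on all arrays; red is positive and blue negative, and black lines part the classes. The red block of Col3a1, Col5a1, Col4a1, Col4a2 and Col6a3 crosses the classes, with r = 0.87 for Col3a1 with Col5a1 and 0.85 for Col4a1 with Col6a3.

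Cell type markers moved with single collagens from mouse to mouse. In 24 such relations (3 chains with 8 marker lists), 3 passed a Benjamini-Hochberg adjusted permutation p of 0.05 in Pearson's r. Col4a1 was higher in mice with higher endothelial markers (r = 0.66, p = 0.001, adjusted p = 0.024; rho = 0.62, adjusted p = 0.019), with r = 0.60 without the 2 mice farthest from the median and 0.75 with the slide means removed. It was lower in mice with higher mesothelial markers, the lining layer of the fat pad (r = -0.63, p = 0.002, adjusted p = 0.024; rho = -0.71, adjusted p = 0.0058; -0.63 without the 2 mice). Col1a1 was lower in mice with higher adipocyte markers (r = -0.58, p = 0.0048, adjusted p = 0.038; rho = -0.75, adjusted p = 0.0053; -0.59 without the 2 mice). These 3 kept their sign within each group and with the slide means removed. Other relations gave other values with the slide means removed: Col1a1 with sperm genes went from 0.40 to 0.77, Col6a1 with adipocyte markers from 0.10 to -0.62, and Col4a1 with macrophage markers from 0.32 to -0.043. Col6a1 passed in rho alone, negatively with progenitor markers (rho = -0.61, adjusted p = 0.028; r = -0.60, adjusted p = 0.071) and positively with sperm genes (rho = 0.64, adjusted p = 0.019; r = 0.55, adjusted p = 0.085). Progenitor markers, of the known makers of type I collagen, gave r = -0.13 with Col1a1, and -0.39 with the slide means removed.

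Of genes with a symbol, 12598 were ranked by how closely their deviations followed a chain over the 22 mice. The ranking includes the other collagens, and the closest genes that are not collagens are named. Col1a1 was followed most closely by Morf4l2 (r = 0.80), Plec, Gkap1, Ubald2 and Phkg2 (0.75), with 0 collagens among the first 20 genes. Col4a1 was followed by Cyp2c23 (0.84), Spaca1, Dhcr7, Serpina3n and Pvalb (0.83), with 2 collagens among the first 20. Col6a1 was followed by Rhoc (0.90), Ncoa5, Aqp1, Lrg1 and Arhgef18 (0.79), with 1 collagen among the first 20. These genes were picked as the highest of many, so the values are a description.

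The genes that make, bind and degrade collagen gave no call either. In 7 lists 0 of 84 measured members passed in limma's test, and the 7 with an unadjusted p under 0.05 all had the higher mean in hypoxia. Of all probes tested 5.23% had such a p, 2.56% with the higher mean in hypoxia. Above 0 lay 56 of the 84, against 50.9% of all probes tested. The count was 42 in the deposited value table and 8 with median centring, where 48 lie above the median of all probes. TGF-beta, the main inducer of collagen synthesis in fibroblasts, was followed through 14 genes, of which 11 lay above 0 with a median of 0.13 (4 with median centring, where 11 lie above the median of all probes). Smad7, the feedback inhibitor of the pathway, had means of -0.34 ± 0.27 over the normoxia mice (SD, n = 12) and 0.15 ± 0.26 over the hypoxia mice (SD, n = 10), a difference of 0.49 ± 0.11 (SE, limma's adjusted p = 0.208). Among the collagen-modifying and crosslinking enzymes 10 of 18 lay above 0 (median 0.0028), with the crosslinking oxidase Lox at 0.31 ± 0.12 (SE, adjusted p = 0.866) and P4hb, a subunit of prolyl hydroxylase, at 0.15 ± 0.077 (SE). The other tested Lox probe differed by 0.12. The oxygen-using hydroxylases P4ha1, P4ha2 and Plod2 differed by 0.0033, 0.035 and -0.015, with standard errors of 0.092, 0.089 and 0.084.

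Procollagen processing genes lay above 0 in 3 of 5, led by Adamts2 (0.17 ± 0.11, SE), which cleaves fibrillar procollagens, and Pcolce (0.19 ± 0.13). Receptors and uptake proteins lay above 0 in 5 of 8, with the receptor kinase Ddr1 at 0.16 ± 0.11 and the integrin chain Itgb1 at 0.14 ± 0.12. Collagen-binding matrix proteins lay above 0 in 13 of 16 (median 0.12), among them the fibre-binding proteoglycans Fmod (0.35 ± 0.14, limma's adjusted p = 0.866) and Bgn (0.17 ± 0.093). The partners of type IV in the basement membrane were mixed in sign, with 7 of 15 above 0, 8 below and a median of -0.010. Hspg2, the proteoglycan perlecan, differed by -0.20 ± 0.10 in 1 probe and 0.090 in the other, and Nid2, which ties laminin to type IV, by 0.17 ± 0.096. Degrading enzymes and their inhibitors lay above 0 in 7 of 8 (median 0.11), with the inhibitors Timp4 (0.30 ± 0.13) and Timp1 (0.23 ± 0.14) having the smallest p.

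**Figure D5:**
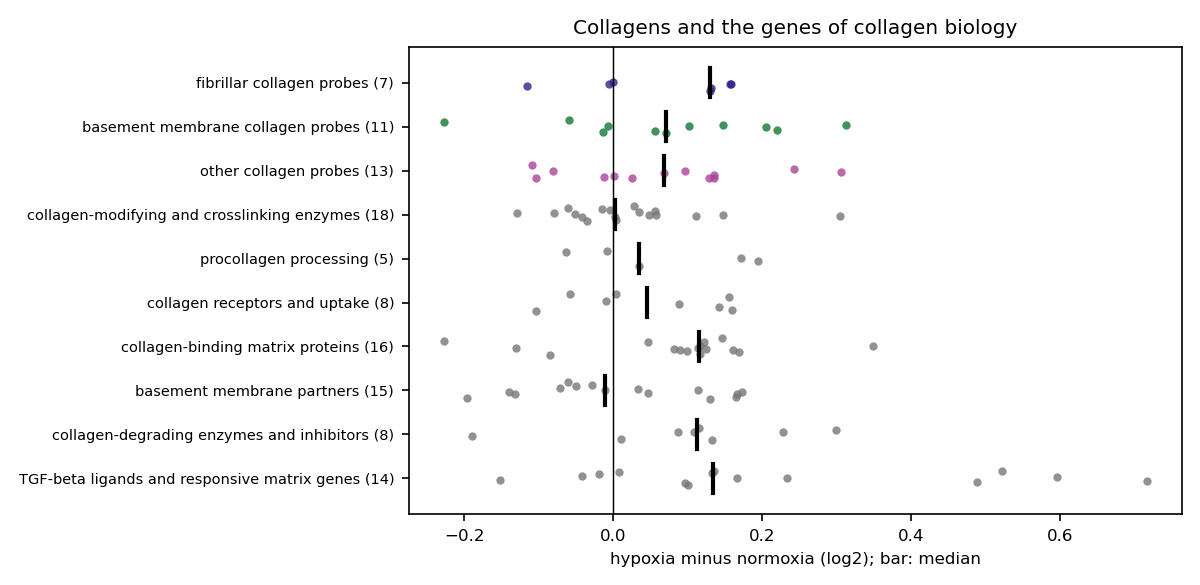
Difference in log2 ratio, hypoxia minus normoxia, of the collagen probes by class (coloured points) and of the genes of 7 lists of collagen biology (grey points), with the median of each row as a bar. No point passed the test over all probes, and the TGF-beta list holds Ccn2 (0.60), Ccn1 (0.52) and Smad7 (0.49).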

How the data were processed

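Agilent Feature Extraction 10.7.3.1 wrote the scanner files, per the submitters' processing notes and the file headers. Their mean signals and local backgrounds are deposited intensity values as scanned. The deposited log10 ratio of the same files carries the software's own background and dye correction, per the file headers. The authors' value table holds log2 values whose normalization is not stated in the sources used here.

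Background was corrected with normexp (offset 50) and each array by loess, giving control spots weight 0 (limma 3.58.1, R 4.3.3). Outlier-flagged spots were dropped and replicate spots averaged. A probe entered the test if Cy5 passed the background mark on 10 or more arrays and each group kept 2 or more values. Group was the single term of the fit to the log2 ratio, with Benjamini-Hochberg adjustment over all probes tested. On simulated data with these group sizes, 75% of 100 probes changed by 0.5 and 98% of 100 changed by 1 were called among 21470. The simulated noise was independent between probes and arrays, without slide effects, and the changed probes were drawn at random from all probes tested. Their median within-group standard deviation was 0.23 over all probes tested and 0.31 over the collagen probes. The rates are therefore not those of the collagen probes. No other scaling between arrays was applied. The samples of a group are mice, so p-values set the group difference against the spread between mice. Each mouse has its own array, so effects of array and slide are part of that spread. The number of arrays limits the precision.

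Probe coordinates are those of the files (mm9). RefSeq (GRCm38.p6) gave names, neighbours, start sites and promoter windows, and no protein sequence was used here. Values were given mouse by mouse for the brightest probe of 8 genes, for the 3 probes of each class with the smallest unadjusted p, and for probes of a gene that differ by over 0.25. In each list the members past the threshold, or else the 2 with the smallest p, were named, as were the 5 genes most like Col1a1, Col4a1 and Col6a1. Of the genes this rule names, 1 is not reported here. P4ha1, P4ha2, Plod2, Ccn1 and Ccn2 were named after their values were seen. The members and lists were chosen with earlier results of these data known. Alternatives were background correction, scaling, filters, the value table, slides, weights and left-out mice.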

Additional observations from a re-analysis of the deposited data

Results flagged for a closer look

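For each of the 31 collagen probes, the gap between the outermost hypoxia mouse and its neighbour was set against the range of the 10 mice. In 2 probes a mouse stood far apart, where about 1 in 20 groups is expected by chance (1.55 here). For Col1a2, hypoxia mouse 7 had a log2 ratio of 1.05 and the others lay between -0.295 and 0.24. This array was the dimmest in Cy5 (15.6% of spots well above background). For Col5a2, hypoxia mouse 2 stood at 0.548 and the others between -0.189 and 0.125. With 12 mice, normoxia was not searched.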

How the results depend on the processing

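The count of collagen probes past the threshold was 0 in all 39 alternatives. Leaving out 1 mouse at a time gave class medians of 0.025 to 0.14 (fibrillar), 0.024 to 0.13 (basement membrane) and 0.0011 to 0.14 (other), and 1 to 1 covarying pairs. Without normoxia mouse 1 and hypoxia mouse 7 together, an alternative chosen after seeing the data, 25 of 31 probes lay above 0 and Col1a1 was 0.11. The replicate numbers did not pair the mice: same-numbered mice deviated with correlations from -0.44 to 0.24, 2 of 10 over 0.1, and 0 of 10 correlated best with their own number. With the replicate block 0 probes passed and the class medians were 0.088, 0.068 and -0.00061.

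With median centring in place of loess the class medians were -0.22 (fibrillar), -0.094 (basement membrane) and -0.13 (other), with all probes at -0.20, and 10 pairs covaried. In that setting Col1a2 was -0.22, Col4a1 -0.00087, Col4a2 -0.094, the first Col18a1 probe -0.093, Col5a1 -0.13, Col5a2 -0.043, Col12a1 -0.049 and Col6a6 0.050. In the deposited value table the fibrillar median was -0.060 (without Col24a1, which that table lacks), Col1a2 -0.030, Col6a6 0.25, and 10 pairs covaried. The scanner software's log ratios gave 7 covarying pairs, Col1a1 at 0.0038 and the second Col18a1 probe at 0.0017, and the slide as a fixed block gave 7 pairs and Col1a1 at 0.071. Probes above background on all 22 arrays gave a basement membrane median of 0.21 over 4 probes. Col1a1 was 0.046 without slide 1, 0.071 without slide 2 and 0.050 with array weights, and Col3a1 0.013 with array weights. Leaving out 1 mouse took Col1a1 from -0.097 to 0.096 and Col3a1 from -0.068 to 0.094. The cause of these changes was not tested.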
